A study of Homo sapiens with 2 samples.

Results

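The posterior HOXA genes are HOXA9, HOXA10, HOXA11 and HOXA13, the last 4 genes of the HOXA cluster on chromosome 7. Their methylation was read by whole genome bisulfite sequencing (WGBS) from the CpGs with at least 1 read in both libraries. These CpGs were taken over 39710 bp of chromosome 7 (hg19) that end with the first base of the HOXA13 transcript. This gave 1102 CpGs, out of 14699127 CpGs listed in both libraries and out of 1667 CpGs in the reference sequence of this stretch. In WGBS, bisulfite turns unmethylated cytosines into bases read as T, whereas methylated cytosines are still read as C, so the share of C reads at a CpG is its methylation level.

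Both libraries came from HEK293T, a human embryonic kidney cell line. The library called Neg is the negative control, which the study describes as cells that were not transduced, although its label gives the same construct and the same 30 days as that of the other library. The titles alone separate them. The cells of the other library, dCas9+3A+HOXA5, carried lentiviral dCas9-SunTag, the DNA methyltransferase DNMT3A1 fused to an antibody fragment that binds SunTag, and 1 guide RNA to HOXA5, and were sorted for fluorescence 30 days later. Each group is 1 library of a bulk cell population without replicates, so that all tests compared these 2 libraries and not the conditions. No WGBS library with DNMT3A and no guide was analysed here, and the share of a difference that belongs to the guide cannot be told apart from that of DNMT3A expression. RNA was not analysed here, so the identity of the cells was not checked against marker genes.

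HOX genes encode homeodomain transcription factors that give positions along the body axis their identity. Within a cluster the genes lie in the order in which they are used, and the posterior HOXA genes act in the limb, the urogenital tract and blood progenitors. Their starts lie in CpG-dense sequence that is usually free of methylation and is often held silent by Polycomb proteins. HOXA9 is best known for its part in leukemia, HOXA10 and HOXA11 for the development and function of the uterus, and HOXA13 for digit and genital development.

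The guide was ggctgtcgctgccgggcgag, which matches chr7:27182884-27182903 on the plus strand, within HOXA5. The transcript starts lay 22.3 kb (HOXA9), 31.0 kb (HOXA10), 42.0 kb (HOXA11) and 56.8 kb (HOXA13) from its centre. All 4 genes lie on the minus strand, so the guide is on their downstream side. Gene bodies followed the Ensembl canonical transcript: HOXA9 (ENSG00000078399) at chr7:27202057-27205156, HOXA10 (ENSG00000253293) at chr7:27210224-27213939, HOXA11 (ENSG00000005073) at chr7:27220776-27224851 and HOXA13 (ENSG00000106031) from chr7:27233983 to the end of the region.

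The following 5 stretches of 200 bases show what HOXA10, HOXA11, HOXA13 and the sequence between HOXA10 and HOXA11 looked like, as examples of stretches that were low in both libraries and of stretches that differed. They run 5′ to 3′ on the minus strand of hg19, the coding strand of these genes, and capitals mark the CpGs that both libraries covered by 3 reads or more. In each named piece, the stretch with most such CpGs outside annotated UTRs was taken, and the piece between HOXA10 and HOXA11 was searched only beyond 1 kb from the HOXA10 start. Nearer that start, the stretch with most such CpGs (11) had 1 of 60 and 10 of 81 methylated reads.

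HOXA10, first coding exon and start of the intron, chr7:27212948-27213147: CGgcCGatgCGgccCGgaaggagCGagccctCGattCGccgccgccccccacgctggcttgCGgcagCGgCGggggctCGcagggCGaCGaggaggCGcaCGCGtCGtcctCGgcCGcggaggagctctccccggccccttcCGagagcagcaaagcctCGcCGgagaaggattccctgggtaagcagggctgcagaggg
Between HOXA10 and HOXA11, over 1 kb from the HOXA10 start, chr7:27215350-27215549: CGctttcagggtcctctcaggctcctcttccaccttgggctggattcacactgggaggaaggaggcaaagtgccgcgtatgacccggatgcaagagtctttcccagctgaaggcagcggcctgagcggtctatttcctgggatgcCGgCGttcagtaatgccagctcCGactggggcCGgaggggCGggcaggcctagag
HOXA11, first coding exon, chr7:27224278-27224477: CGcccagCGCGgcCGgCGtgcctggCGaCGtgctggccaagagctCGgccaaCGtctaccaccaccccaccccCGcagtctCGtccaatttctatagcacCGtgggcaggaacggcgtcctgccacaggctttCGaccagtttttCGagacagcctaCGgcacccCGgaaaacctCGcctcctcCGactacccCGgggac
Upstream of HOXA11, chr7:27225384-27225583: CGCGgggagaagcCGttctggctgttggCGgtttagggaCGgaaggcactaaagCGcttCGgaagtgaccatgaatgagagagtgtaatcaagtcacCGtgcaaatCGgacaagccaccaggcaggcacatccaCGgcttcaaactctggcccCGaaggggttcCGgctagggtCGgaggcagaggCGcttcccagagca
HOXA13, end of the first coding exon and start of the intron, chr7:27238731-27238930: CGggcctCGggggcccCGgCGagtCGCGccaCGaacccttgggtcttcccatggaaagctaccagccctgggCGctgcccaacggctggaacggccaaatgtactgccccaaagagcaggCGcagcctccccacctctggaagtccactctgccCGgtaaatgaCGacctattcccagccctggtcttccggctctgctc

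The HOXA10 stretch was almost free of methylation in both libraries, with 1 of 84 methylated reads in Neg against 0 of 97 in dCas9+3A+HOXA5 over its 22 CpGs in capitals. The stretch shown between HOXA10 and HOXA11 went from 0 of 27 reads to 25 of 25 over 6 CpGs. The 2 stretches at HOXA11 lie on either side of its start and behaved differently. Inside the first coding exon, 1 of 109 reads was methylated in Neg and 2 of 106 in dCas9+3A+HOXA5 over 19 CpGs. Upstream, the values were 0 of 87 and 104 of 123 over 14 CpGs, each of which stood between 66.7% and 100% in dCas9+3A+HOXA5. The HOXA13 stretch had 0 of 51 and 0 of 45 methylated reads over 11 CpGs.

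The Neg library held 89774283 reads summed over CpGs and dCas9+3A+HOXA5 46703423, with a median of 3 and 2 reads per listed CpG. Of all summed reads, 63.3% were methylated in Neg and 69.6% in dCas9+3A+HOXA5, so the share was higher over the genome as well. Over the 1102 CpGs of the posterior HOXA genes the mean depth was 3.75 reads in Neg against 3.33 in dCas9+3A+HOXA5. Levels below are means of the deposited fraction over CpGs, unless they are given as a share of summed reads. A unit was called higher or lower when its mean differed by more than 20 percentage points and Fisher's exact test on its summed reads gave an adjusted p under 0.01, with Benjamini-Hochberg adjustment over all units of its kind in the genome. Wilson and Newcombe intervals at the 95% level cover counting error only, since reads of 1 fragment and PCR copies are not independent. Summed reads count 1 fragment once at each CpG it covers, and the p-values also take them as independent. For a count of 0, the upper limit given is 3 divided by the number of summed reads. It takes them as independent too, so the true limit is likely wider.

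Across the whole stretch, mean methylation was 22.4% in Neg against 41.6% in dCas9+3A+HOXA5. Neg had 995 methylated reads of 4127 (24.1%, interval 22.8 to 25.4%) and dCas9+3A+HOXA5 had 1447 of 3665 (39.5%, 37.9 to 41.1%), a difference of 15.4 percentage points (13.3 to 17.4; two-sided Fisher's exact test, p = 2.44e-48). This average covers a sharp division. Of 728 CpGs without a methylated read in Neg, 478 had none in dCas9+3A+HOXA5 either, 172 were methylated in every read and 78 were mixed. At a median of 4 (Neg) and 3 (dCas9+3A+HOXA5) reads per CpG, a CpG at 0% or 100% may have an intermediate level.

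**Figure D1:**
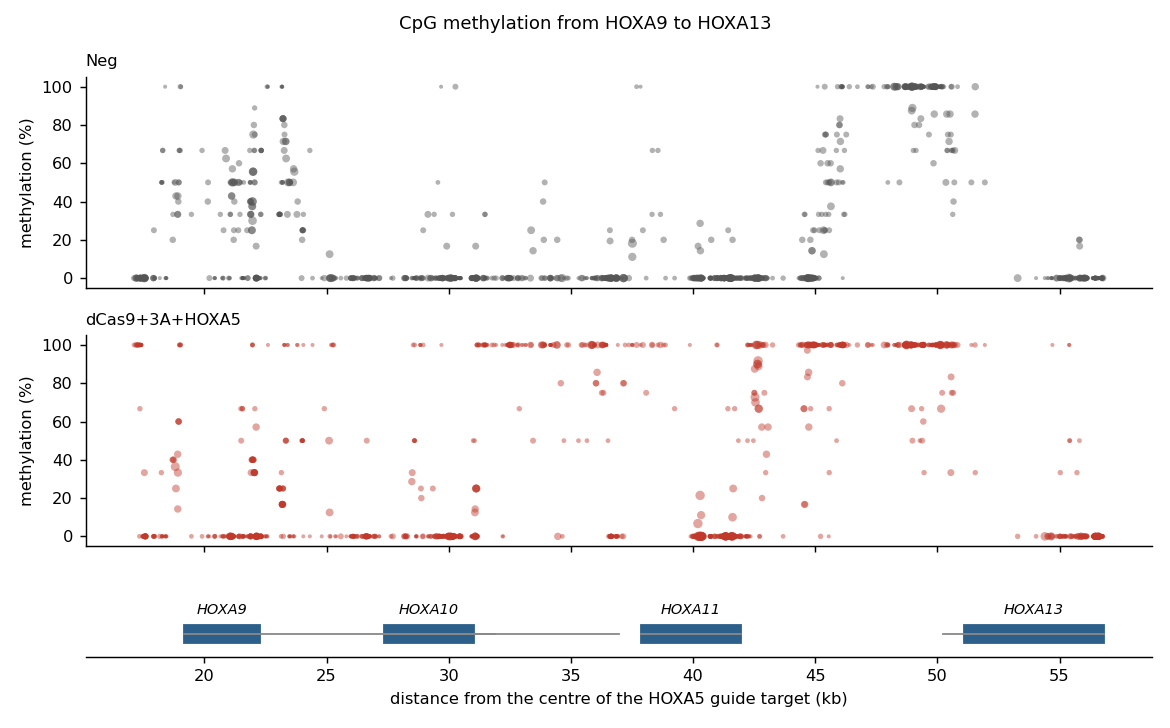
Methylation (%) of the 1102 CpGs in Neg (grey, top) and dCas9+3A+HOXA5 (red, middle) against the distance in kb from the centre of the HOXA5 guide target, with larger points for more reads. The bottom row shows the canonical transcripts as boxes and the full gene records as lines; between HOXA10 and HOXA11 the mean level went from 3.41% to 68.9%, whereas HOXA13 stood at 2.95% and 7.33%.

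Among the 4 gene bodies, 4 promoters and 4 intergenic pieces, the largest differences of means were those of 2 pieces. These pieces lie between canonical transcripts of protein-coding genes but mostly within other annotation. The full gene record of HOXA10 runs on to 27219880 and covers most of the HOXA10 to HOXA11 piece. The noncoding genes HOXA11-AS and ENSG00000253508 together cover most of the HOXA11 to HOXA13 piece. From HOXA10 to HOXA11 (chr7:27213940-27220775, 160 CpGs) the level was 3.41% in Neg against 68.9% in dCas9+3A+HOXA5, and reads went from 21 of 626 to 304 of 467 (Fisher's exact test, adjusted p = 2.64e-115). Of the 144 CpGs in this piece without a methylated read in Neg, 87 were methylated in every read of dCas9+3A+HOXA5 and 37 in none. From HOXA11 to HOXA13 (chr7:27224852-27233982, 284 CpGs) the level was 56.1% and 87.4%, with 618 of 1127 and 881 of 998 reads (Fisher's exact test, adjusted p = 5.61e-64). Its difference was 31.3 points, and 64.6 over CpGs with at least 5 reads. From the region's first base to HOXA9 (up to 27202056, 70 CpGs) it was 18.6% and 44.1%, with 43 of 290 and 77 of 199 reads (Fisher's exact test, adjusted p = 7.13e-08).

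The fourth piece, from HOXA9 to HOXA10 (chr7:27205157-27210223, 128 CpGs), went the other way in its values. Its level was 24.0% in Neg against 19.0% in dCas9+3A+HOXA5, with 124 of 488 and 56 of 312 reads (difference of read shares -7.46 points, interval -13.1 to -1.55), and it was not called (Fisher's exact test, adjusted p = 0.0426). Over CpGs with at least 3 reads its difference was -15.2 points (Fisher's exact test, adjusted p = 0.00437) and with at least 5 it was -2.77 (adjusted p = 1), so the size is not settled. So 3 of the 4 pieces were called higher and 0 lower, where 1.7% of the 11929 intergenic pieces of the genome were called higher and 0.176% lower. The piece before HOXA9 rests on thinly read CpGs, because its difference fell to 13.7 points over CpGs with at least 3 reads and to 2.85 with at least 5, and neither was called.

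**Figure D2:**
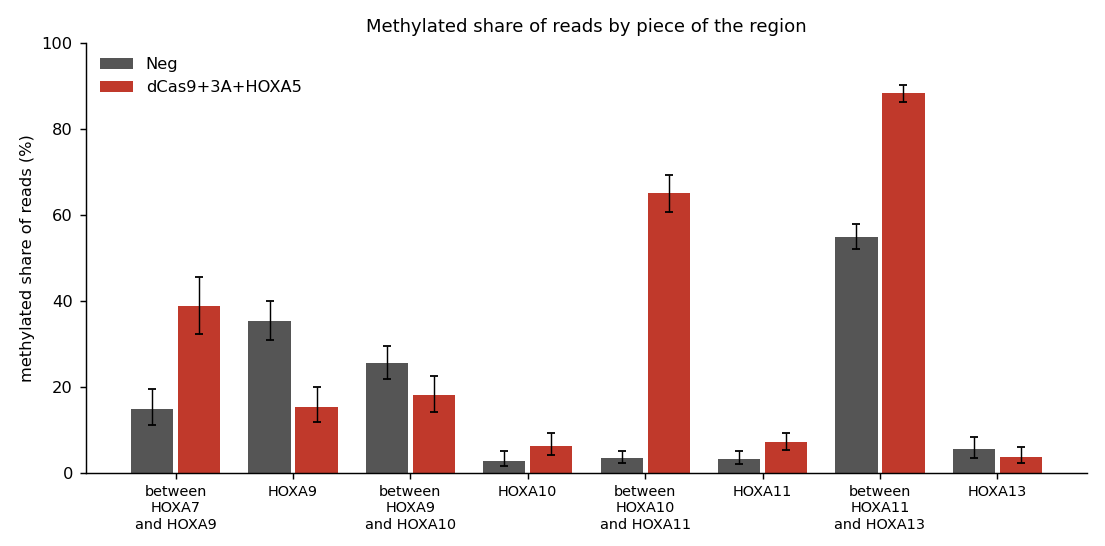
Methylated share of summed reads (%) in the 4 gene bodies and 4 intergenic pieces, in order along the chromosome, for Neg (grey) and dCas9+3A+HOXA5 (red). Error bars are 95% Wilson intervals for counting error, with 1 library per bar; the piece between HOXA10 and HOXA11 went from 3.35% to 65.1%, and HOXA9 from 35.3% to 15.4%.

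Among the gene bodies by canonical transcript 0 of 4 were called, where 3.81% of 44427 gene bodies of the genome were called higher and 0.545% lower. HOXA9 was the member with most methylation in Neg. Its 96 CpGs averaged 28.4% in Neg against 12.4% in dCas9+3A+HOXA5, and reads went from 145 of 411 (35.3%, interval 30.8 to 40.0%) to 48 of 312 (15.4%, 11.8 to 19.8%). This difference of -16.0 points (Fisher's exact test, adjusted p = 1.47e-08) stayed under the 20 points that a call needs. It was -23.3 points over CpGs with at least 3 reads, which was called, and -10.1 with at least 5 (Fisher's exact test, adjusted p = 0.0598). Among the 96 CpGs, 49 were lower in dCas9+3A+HOXA5, 12 were higher and 35 were equal. Within the gene, the intron went from 59 of 145 to 8 of 112 methylated reads, and the first coding exon from 79 of 234 to 40 of 175.

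HOXA10 and HOXA11 were almost unmethylated in Neg, and the sign of their small differences changed with the minimum of reads. HOXA10 had 3.24% in Neg against 8.94% in dCas9+3A+HOXA5 over 121 CpGs, with 10 of 360 and 22 of 351 reads (difference of read shares 0.411 to 6.78 points; Fisher's exact test, adjusted p = 0.0698). HOXA11 had 2.91% and 11.0% over 127 CpGs, with 15 of 475 and 45 of 638 reads (1.25 to 6.47 points; Fisher's exact test, adjusted p = 0.0144). The HOXA10 difference was -0.111 points over CpGs with at least 3 reads and 0 with at least 5, and that of HOXA11 was 3.55 and -1.13. In both genes the methylated reads of dCas9+3A+HOXA5 were mostly at the 3′ end, away from the start.

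At the 3′ end of HOXA10, the 3′ UTR went from 0 of 38 to 12 of 55 methylated reads and the second coding exon, which holds the homeobox, from 0 of 23 to 5 of 16. The first coding exon of HOXA10, with 51 CpGs, had 3 of 152 and 1 of 160. In HOXA11 the 3′ UTR, with 9 covered CpGs, went from 8 of 27 to 27 of 29, while the first coding exon, with 63 CpGs, had 2 of 236 and 8 of 342. These parts of genes were not tested as a family.

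HOXA13, the gene farthest from the guide, had 2.95% in Neg against 7.33% in dCas9+3A+HOXA5 over 116 CpGs, but 19 of 350 and 14 of 388 methylated reads, so that the 2 measures differed in direction (difference of read shares -5.06 to 1.22 points; Fisher's exact test, adjusted p = 0.434). Its first coding exon, with 64 CpGs, had 0 of 148 reads methylated in Neg and 0 of 246 in dCas9+3A+HOXA5. With reads taken as independent, these counts allow shares of up to 2.03% and 1.22%. Of the 109 CpGs of HOXA13 without a methylated read in Neg, 102 had none in dCas9+3A+HOXA5. The intron stood at 3 of 122 and 6 of 63 reads. The 3′ UTR, with 15 covered CpGs, held 16 of the 19 methylated reads of Neg and went from 16 of 49 to 7 of 57 reads, while its mean over CpGs was 19.0% and 28.9%.

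Promoters, taken as 1 kb on either side of the transcript start, gave 2 calls among the 4 members, both higher, where 2.27% of 53330 promoters of the genome were called higher and 0.606% lower. The HOXA11 promoter had 0.36% in Neg against 25.2% in dCas9+3A+HOXA5 over 125 CpGs, with 2 of 455 and 157 of 577 reads (Fisher's exact test, adjusted p = 9.12e-38). With 500 bp on either side its difference was 17.5 points and with 2 kb 19.96, neither of which was called. The HOXA10 promoter had 2.49% and 25.6% over 87 CpGs, with 6 of 283 and 49 of 288 reads (Fisher's exact test, adjusted p = 4.59e-08). The gain at HOXA10 was a mean over CpGs that often had 1 or 2 reads, and it was 2.33 points over CpGs with at least 3 reads and 14.9 as a share of reads, neither of which was called.

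The other 2 promoters were not called. HOXA9 had 36.6% in Neg against 17.0% in dCas9+3A+HOXA5 over 99 CpGs, with 145 of 370 and 67 of 345 reads (Fisher's exact test, adjusted p = 7.17e-07), a difference of -19.5 points. It was -25.6 over CpGs with at least 3 reads, which was called lower, and -7.19 with at least 5 (Fisher's exact test, adjusted p = 0.336). The HOXA13 promoter is cut at the start of the gene by the region, and its 68 CpGs had 1 of 171 and 0 of 257 methylated reads (upper limit 1.17%; Fisher's exact test, adjusted p = 0.686).

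The gains at HOXA10 and HOXA11 were on the upstream side of the start, a split that was chosen after the values were seen. Upstream of HOXA11, 48 CpGs went from 0% to 56.8%, with 0 of 170 reads (upper limit 1.76%) and 145 of 197 (Fisher's exact test, adjusted p = 4.48e-54). Upstream of HOXA10, 36 CpGs went from 2.31% to 60.5%, with 3 of 131 and 48 of 128 reads (Fisher's exact test, adjusted p = 2.83e-11). The mean at HOXA10 gives much weight to thinly read CpGs. In the 200 bases next to the start (chr7:27213940-27214139), 11 CpGs that both libraries covered by 3 reads or more went from 1.52% to 11.5%, with 1 of 60 and 10 of 81 reads. Upstream of HOXA9, 35 CpGs went from 53.5% to 14.3%, with 54 of 93 and 19 of 124 reads, and this flank was called lower (Fisher's exact test, adjusted p = 1.73e-08). Most of its reads lay between 750 and 1000 bp upstream, where 20 CpGs had 40 of 64 and 18 of 90. Neighbouring CpGs share fragments, so these totals may rest on few of them, and no read minimum was applied to this flank. The 3 upstream flanks inside the region thus gave 2 calls higher and 1 lower, where 1.66% of 41223 upstream flanks of the genome were called higher and 0.592% lower.

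Upstream of HOXA13 (chr7:27239711-27240710), which lies outside the region, 5 of 142 reads were methylated in Neg and 10 of 138 in dCas9+3A+HOXA5 (Fisher's exact test, adjusted p = 0.53). Downstream of the starts, 0 of 4 flanks were called, where the genome had 1.76% higher and 0.65% lower of 43412. The downstream flank of HOXA11 had 2 of 285 and 12 of 380 methylated reads over 77 CpGs (Fisher's exact test, adjusted p = 0.182), and that of HOXA10 3 of 152 and 1 of 160 over 51 CpGs (adjusted p = 0.734).

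In steps of 250 bp, the 9 covered CpGs nearest upstream of HOXA11 had 0 of 21 and 0 of 11 methylated reads. With reads taken as independent, this allows shares of up to 14.3% and 27.3%. Between 250 and 500 bp upstream, reads went from 0 of 31 to 11 of 19, and between 500 and 750 bp from 0 of 94 to 113 of 134. At HOXA10, the 22 CpGs within 250 bp upstream of the start went from 1 of 91 to 23 of 103 reads, and the 9 CpGs between 250 and 500 bp from 2 of 28 to 18 of 18.

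**Figure D3:**
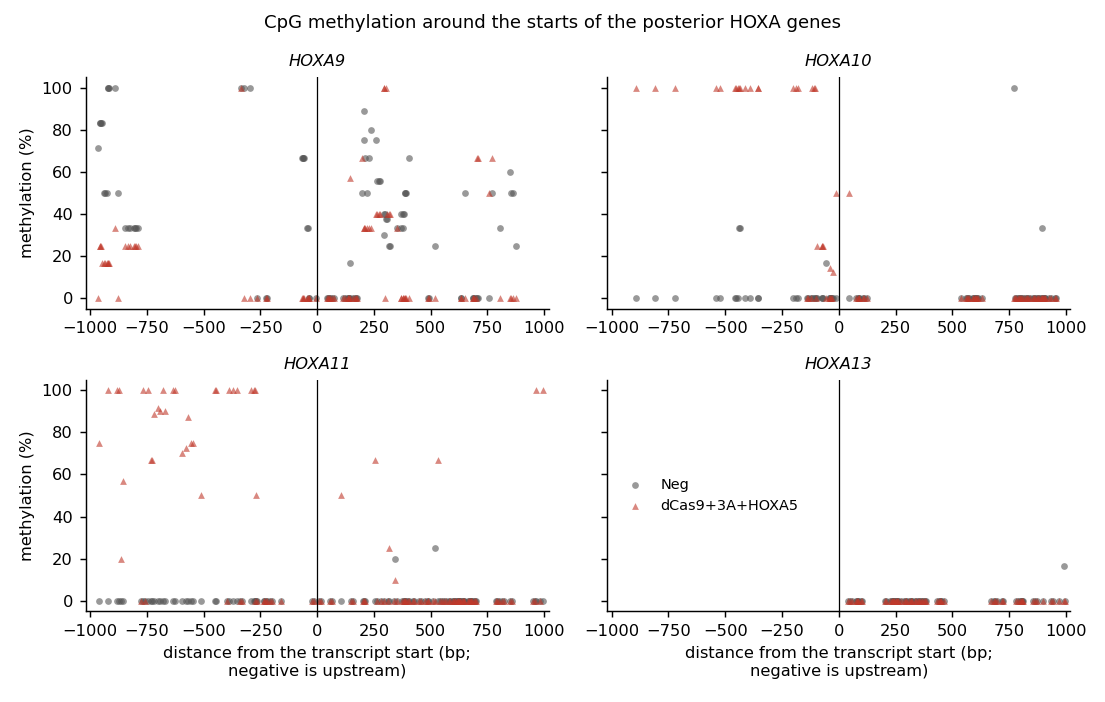
Methylation (%) of single CpGs within 1000 bp of the canonical start of each gene, in Neg (grey circles) and dCas9+3A+HOXA5 (red triangles), with negative distances upstream. Upstream of HOXA10 and HOXA11 many red triangles lie at high levels where Neg is near 0, although those nearest the starts are mostly low, those of HOXA9 lie mostly under the grey circles, and upstream of HOXA13 is outside the region.

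The choice of transcript matters at HOXA9 and HOXA10, whose gene records run on upstream through longer transcripts. From the start of the gene record of HOXA9 (27214799), the promoter had 1.24% in Neg against 64.1% in dCas9+3A+HOXA5, with 3 of 238 and 100 of 191 reads. It was called higher (Fisher's exact test, adjusted p = 5.63e-36), whereas the HOXA9 promoter at the canonical start had a lower value in dCas9+3A+HOXA5 and was not called. Over the whole gene record, which takes in HOXA10, the mean of HOXA9 was 16.5% and 17.8%, whereas its reads went from 282 of 1387 (20.3%) to 173 of 1102 (15.7%). The gene record of HOXA10 stood at 2.55% and 41.7%, with 24 of 920 and 306 of 789 reads. It was called higher (Fisher's exact test, adjusted p = 3.45e-86), unlike the canonical body.

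A grid of 1-kb tiles showed where the libraries differed. Of 34 tiles with at least 5 covered CpGs, 14 were called higher and 1 lower, where 1.43% of 1053669 tiles of the genome were called higher and 0.391% lower. Over CpGs with at least 3 reads, 8 of 23 tiles were called higher and 2 lower, and with at least 5 reads 2 of 9 higher and 0 lower. From 27214001 to 27222000, 8 tiles in a row were called higher. They start within the first kb upstream of HOXA10 and end in the 3′ UTR of HOXA11. With at least 3 reads in both libraries, the tiles from 27214001, 27218001, 27220001 and 27221001 kept under 5 CpGs and could not be tested. The run is therefore broken under that minimum. In the tile from 27214001, each such CpG had 2 of 8 methylated reads in dCas9+3A+HOXA5. In the tile from 27215001 the level went from 0% to 90.7%, with 0 of 84 and 53 of 56 reads, and in that from 27218001 from 0% to 90.9%, with 0 of 38 and 70 of 75. The other tiles of this run were those from 27214001 (2.38% and 75.0%), 27216001 (12.4% and 95.8%), 27217001 (1.33% and 82.0%), 27219001 (0.987% and 40.0%), 27220001 (22.9% and 86.3%) and 27221001 (36.7% and 100%).

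Upstream of HOXA11, the tile from 27225001 went from 0 of 178 to 158 of 215 reads, and that from 27227001 from 9 of 200 to 160 of 181. The tiles from 27228001 (56.2% and 91.2%) and 27229001 (68.9% and 100%) followed, where Neg was already methylated. In the tile from 27231001 both libraries were high (96.7% and 97.8%), while the tiles from 27237001 (0% and 9.52%) and 27238001 (1.23% and 8.33%), in HOXA13, were low in both and not called. On the other side, the region's first tile, before HOXA9, went from 0.595% to 50%, and that from 27211001, at the 3′ end of HOXA10, from 0.926% to 33.6%. The tile called lower, from 27203001, held the second coding exon of HOXA9 with parts of its intron and 3′ UTR and went from 18 of 55 reads to 0 of 51 (Fisher's exact test, adjusted p = 3.00e-04).

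Among tiles that were not called, the 3 with most covered CpGs were at HOXA11, at HOXA9 and between HOXA11 and HOXA13. The tile from 27224001, with the first coding exon of HOXA11, had 0.625% and 3.03% over 72 CpGs. The tile from 27204001, with the first coding exon of HOXA9, had 35.7% and 18.2% over 62 CpGs (Fisher's exact test, adjusted p = 0.00172). The tile from 27232001 had 97.5% and 96.0% over 60 CpGs.

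Of the region's tiles, 21 were under 20% in Neg, with a median difference of 30.0 points over all 21. Of these, 10 were called higher, with a median of 76.6 points (32.7 to 90.9), and the other 11 had a median of 3.99 (-2.52 to 30.0). In the genome 3.51% of 97043 tiles under 20% in Neg were called higher, with a median difference of 0.526 points. Such tiles cannot be called lower, since that needs a fall of more than 20 points. The 10 called tiles held a median of 42 reference CpGs (14 to 70) and the other 11 a median of 49 (15 to 128), and the ratio of observed to expected CpGs was 0.523 (0.208 to 0.751) and 0.672 (0.298 to 1.01). The ranges overlap, and this was not tested.

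No single CpG could be called. Both libraries reached 5 reads at 122 CpGs, of which 55 were higher in dCas9+3A+HOXA5, 19 lower and 48 equal. By Fisher's exact test 0 passed the adjusted threshold, where 0.0075% of 1319472 such CpGs of the genome were called higher and 0.000152% lower. The CpGs with the smallest p lay upstream of HOXA11, at 27225554 (0 of 8 reads in Neg against 11 of 12 in dCas9+3A+HOXA5; Fisher's exact test, adjusted p = 0.14) and at 27227616 (0 of 9 and 7 of 7; adjusted p = 0.147).

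The stretch around the guide gained more on average. From HOXA5 to HOXA7, the stretch around the guide that ends where the region begins (749 CpGs), methylated reads went from 13.6% to 53.3%. In shares of reads, the gain of the posterior genes minus that of HOXA5 to HOXA7 was -24.4 points (interval -27.5 to -21.2, MOVER method on reads). Of tiles under 20% in Neg, 12 of 16 were called higher from HOXA5 to HOXA7. Distance did not order the tiles, since tiles 6.61 to 9.61 kb from the guide centre differed by -0.458 to 14.8 points and were not called. Tiles 31.6 to 36.6 kb from the guide centre gained 39.0 to 90.9 points, while the differences of tiles 20.6 to 23.6 kb away were -20.7 to -16.0. The latter tiles already stood at 20.7 to 55.4% in Neg.

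**Figure D4:**
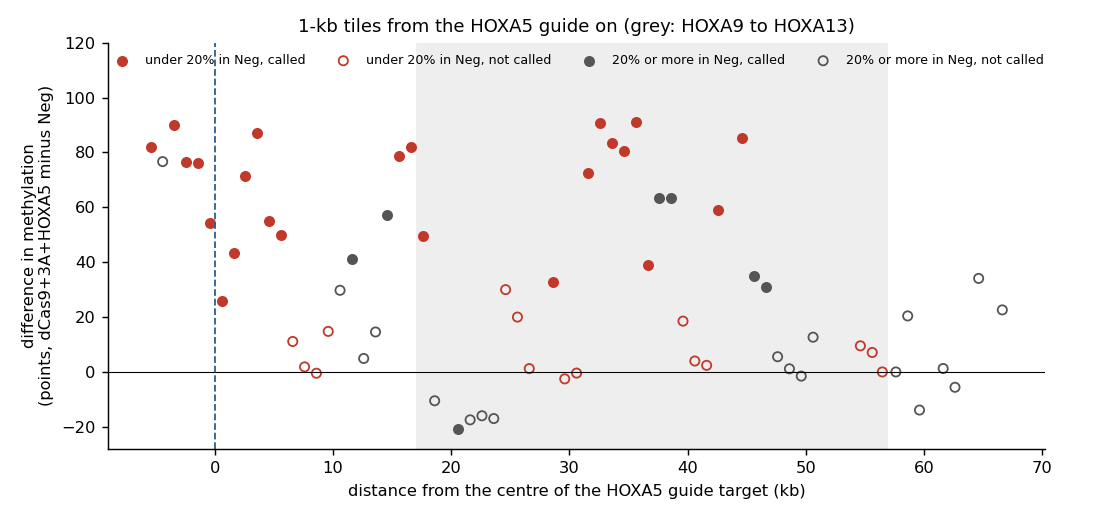
Difference in mean methylation (percentage points, dCas9+3A+HOXA5 minus Neg) of 1-kb tiles against the distance in kb from the guide centre (dashed line), with the HOXA9 to HOXA13 region in grey. Red circles are tiles under 20% in Neg and dark circles the others, filled where called; within the grey band 14 tiles were called higher and 1 lower, against 8 and 2 over CpGs with at least 3 reads.

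Noncoding and readthrough genes also lie in the region. HOXA11-AS, a noncoding RNA read from the opposite strand that starts within HOXA11, had 10.7% in Neg against 52.7% in dCas9+3A+HOXA5 over 197 CpGs of its body and was called higher (Fisher's exact test, adjusted p = 9.79e-57), while its promoter had 0.914% and 5.09%. The noncoding gene ENSG00000253508, between HOXA11 and HOXA13, was called higher over its body (68.3% and 94.4%) and stood at 92.2% and 94.8% at its promoter. HOXA10-AS, antisense to the 3′ end of HOXA10, had 0 of 224 and 14 of 165 methylated reads over its body (Fisher's exact test, adjusted p = 2.89e-05) and was not called, since its mean differed by 7.31 points. The readthrough gene ENSG00000257184, which joins HOXA10 and HOXA9, was called higher at its promoter (2.98% and 55.5%) but not over its body (13.1% and 30.8%). The gain at this promoter was not at the start itself (27219632). Around the start, 22 CpGs from 27219501 to 27220000 had 0% and 4.55% and were not called. The pieces next to it, from 27219001 (1.93% and 73.9%) and from 27220001 (6.16% and 82.5%), were called higher. HOTTIP, a noncoding RNA that starts next to HOXA13, had 94.6% and 92.6% over a canonical body that lies outside the region. Of these other genes, 2 of 5 tested bodies and 1 of 6 promoters were called higher and 0 lower, beside 3.81% of bodies and 2.27% of promoters called higher in the genome. Their median differences were 17.7 and 3.40 points. The 2 called bodies overlap each other and the HOXA11 to HOXA13 piece. The called promoter lies within the HOXA10 to HOXA11 piece, so these calls reuse CpGs of pieces already called.

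MIR196B, between HOXA9 and HOXA10, encodes miR-196b, which targets HOX transcripts. Its promoter had 0 of 195 methylated reads in Neg against 4 of 118 in dCas9+3A+HOXA5 over 57 CpGs and was not called (Fisher's exact test, adjusted p = 0.103). The mature sequences (RefSeq, GRCh38.p14) are shown to identify the gene's products, with the seed in capitals, and their amounts were not measured.
miR-196b-5p: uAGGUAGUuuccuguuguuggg
miR-196b-3p: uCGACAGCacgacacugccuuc

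Letters of 2 kinds were searched in the region on both strands. AGGGGGC, a core of the motif of the insulator protein CTCF, occurred 7 times, in 6 of 39 tiles, whereas 7.70% of 155338 1-kb tiles of chromosome 7 hold it. Within 50 bp of the matches the reads were free of methylation in both libraries at 5 of the 7, over 1 to 28 reads in Neg and 3 to 79 in dCas9+3A+HOXA5, so some of these zeros rest on very few reads. At the other two, in HOXA9 (27204261) and in the HOXA11 intron (27223227), methylated reads went from 10 of 21 to 0 of 9 and from 3 of 55 to 4 of 107. Binding was not measured.

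Sites like the guide were those with at most 5 mismatches to its 20 bases before an NGG. The region held 1, and chromosome 7 held 74. It lies in the first coding exon of HOXA13, on the minus strand at chr7:27239531-27239550, and reads ggctgCcgGGgccgggGgCg next to GGG, with the mismatches in capitals. Counted from 1 at the 5′ end of the guide these are T6C, C9G, T10G, C17G and A19C. Within 250 bp of it, 41 CpGs had 0 of 72 methylated reads in Neg against 0 of 187 in dCas9+3A+HOXA5. With reads taken as independent, this allows shares of up to 4.17% and 1.60%.

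The posterior genes of the other clusters lie on other chromosomes. Of 12 such genes, 3 promoters and 4 bodies were called higher and 0 lower. In the genome 2.27% of promoters and 3.81% of bodies were called higher, and 0.606% and 0.545% lower. The median differences of the 12 genes were 4.74 points for promoters and 6.38 for bodies, beside 2.43 and 4.14 over all tested. The promoters of HOXD13 (24.7% and 51.2%), HOXD9 (65.1% and 92.1%) and HOXC11 (5.26% and 28.9%) were called. HOXD11, the counterpart of HOXA11 in the HOXD cluster, had 1.72% and 6.72% at its promoter and was called over its body (1.09% and 24.9%), as were the bodies of HOXD9 (58.2% and 92.8%), HOXC11 (10.9% and 37.6%) and HOXC9 (7.63% and 29.6%). Methylation at HOX loci thus also differed between the libraries away from chromosome 7, and the cause was not tested.

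**Figure D5:**
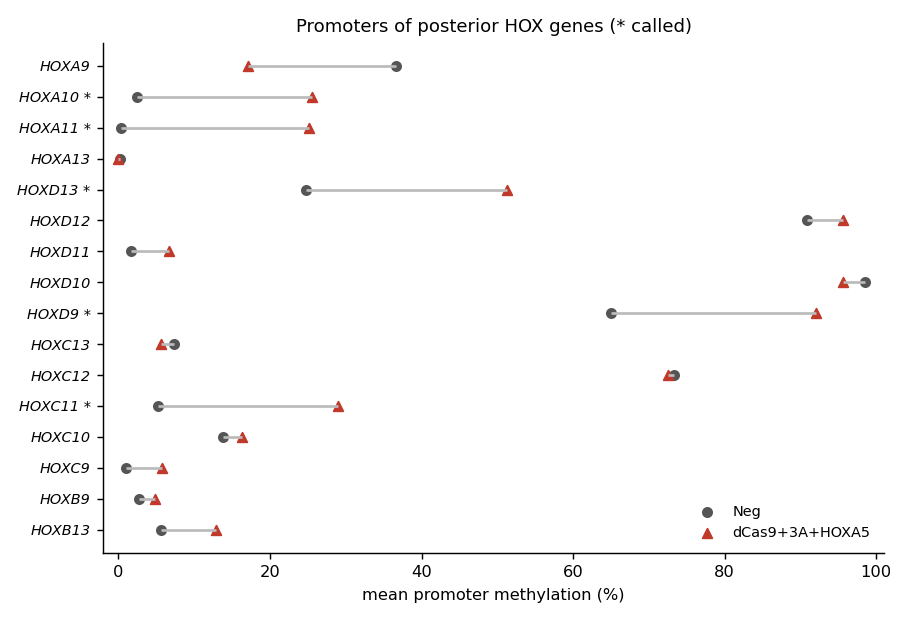
Mean promoter methylation (%) of the 4 posterior HOXA genes and their 12 counterparts in the other HOX clusters, in Neg (grey circles) and dCas9+3A+HOXA5 (red triangles), joined by a line for each gene, with an asterisk where called. HOXA10 and HOXA11 gained 23.1 and 24.8 points, HOXC11 23.7 and HOXD9 27.1, whereas HOXA9 was 19.5 points lower.

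The TALE proteins MEIS and PBX bind DNA together with HOX proteins. Of their 7 genes 6 could be tested, since PBX2 had no covered CpG. Called bodies and promoters numbered 0 by Fisher's exact test, beside 3.81% and 2.27% called higher in the genome. The median differences were 7.53 points for bodies and 1.02 for promoters, beside 4.14 and 2.43 over all tested. MEIS1, a partner of HOXA9, had 1.18% and 2.63% at its promoter.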

How the data were processed

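Genomic DNA of 2 HEK293T libraries, Neg and dCas9+3A+HOXA5, was analysed by WGBS, and groups were taken from the sample titles. Per the labels and methods, the authors aligned reads to hg19 with BSMAP (version 2.90 in the submitters' processing notes). Handling of duplicates and multiply matching reads was not given in the sources used here. Each deposited file lists, per CpG, the count of C reads and of C or T reads, an estimated count corrected for C-to-T variants, and the fraction of C over this estimated count. The study states a minimum of 5 reads, but CpGs with 1 read are listed and were used here.

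Tests were two-sided Fisher's exact tests on C and remaining C or T counts, with Benjamini-Hochberg adjustment over units with at least 5 covered CpGs (Python 3.11.15, scipy 1.17.1). A check on simulated data drew reads as independent, so it could not show the effect of CpGs that share fragments. Gene models came from GENCODE 44 mapped to GRCh37. Intergenic pieces lay between neighbouring protein-coding transcripts, up to 50 kb long, with readthrough genes left out. Alternatives were minima of 3, 5 and 10 reads, shares of reads, CpGs without variant evidence, other promoter and tile widths, gene records, and promoter flanks. The members and lists were chosen with earlier results of these data known. Genes named were the 4 members, the other genes of the region, the posterior paralogues and the TALE genes. The region's called tiles and the 3 best covered others were also named, and some other uncalled tiles were named outside this rule. Comparison with 1 further stretch of the cluster and 1 sequence are not reported here.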

Additional observations from a re-analysis of the deposited data

How the results depend on the processing

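No paired analysis was possible because there was 1 library per group, so that none could be left out either. With at least 3 reads per CpG, the difference was -23.3 points for the HOXA9 body (called lower, so 1 body was called), -0.111 for the HOXA10 body, -0.735 for the HOXA13 body, -25.6 for the HOXA9 promoter (called lower), 2.33 for the HOXA10 promoter and 13.7 for the piece before HOXA9, and 8 tiles were called higher and 2 lower. The piece between HOXA9 and HOXA10 then differed by -15.2. With at least 5 reads the difference was -10.1 for the HOXA9 body, -7.19 for the HOXA9 promoter, 39.8 for the HOXA11 promoter, 64.6 for the piece between HOXA11 and HOXA13, -1.13 for the HOXA11 body, 7.86 for the HOXA10 promoter (1 promoter called) and 2.85 for the piece before HOXA9, and 2 tiles were called higher and 0 lower of 9 tested. A minimum of 10 reads left no single CpG to test.

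As shares of reads, the HOXA13 body differed by -1.82 points and the HOXA10 promoter by 14.9 (1 promoter called). With gene records, the HOXA9 body differed by 1.32 (by -4.63 as a share of reads), the HOXA10 promoter by 46.5, the HOXA10 body by 39.1 (1 body called) and the HOXA9 promoter by 62.8. The gene record of HOXA10 starts at 27219880, and the 22 CpGs from 27219501 to 27220000 around it had 0% and 4.55%. With 500 bp on either side the HOXA10 promoter differed by 42.1 and the HOXA11 promoter by 17.5, and with 2 kb by 19.96 (1 promoter called each time), and HOXA13 by 3.49 with 2 kb. On 1 side alone, chosen after seeing the data, the HOXA9 upstream flank differed by -39.2, the HOXA10 downstream flank by -1.63 and the HOXA11 downstream flank by 4.85. Tiles of 500 bp gave 3 called lower and tiles of 2 kb 9 called higher. The pieces between HOXA10 and HOXA11 and between HOXA11 and HOXA13 were called higher in every setting that was run on them. The causes were not tested, and at a median of 2 to 3 reads per listed CpG the levels of single CpGs are coarse.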
